A study of Mus musculus with 5 samples.

Results

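The miR-17~92 and miR-106b~25 clusters are a pair of related groups of microRNA genes. Their 9 mature products were chosen by name (mmu-miR-17-5p, mmu-miR-18a-5p, mmu-miR-19a-3p, mmu-miR-19b-3p, mmu-miR-20a-5p, and mmu-miR-92a-3p of the first cluster, and mmu-miR-106b-5p, mmu-miR-93-5p, and mmu-miR-25-3p of the second, written without the mouse prefix below), out of 1247 mouse miRNAs on the array. Of the 9, 7 were detected by their own probes on all 5 arrays and miR-17-5p and miR-19a-3p on none. Kidney tissue came from male C57B/6 mice whose kidneys on both sides were clamped for 30 min of warm ischemia and then reperfused for 6, 12, 24, or 48 h before the kidneys were taken (ischemia reperfusion injury, IRI). Sham mice had the same surgery without the clamp. The submitters state 8 mice per time point, while each of the 5 groups was read on 1 array, and the sources used here do not say whether RNA was pooled. No spread between animals was therefore measured and no test between groups was possible. The errors below are those the scanner software gives for 1 array only. For bright probes they were close to a fixed share of the signal (13.9 on 138 for the brighter miR-20a-5p probe in sham). They are not the measured spread of the spots.

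A microRNA is cut from a hairpin in a longer transcript and then guides a silencing complex to messenger RNAs that pair with its seed, the bases near its 5′ end. miR-17~92, also known as oncomir-1, is transcribed as 1 unit, is activated by the proto-oncogene Myc, and is known for promoting proliferation and for restraining the death factor Bim. It is also needed for normal kidney development, and miR-106b~25 lies in an intron of Mcm7, which encodes a subunit of the replicative helicase.

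The mature sequences are shown because shared seeds place the members of both clusters in common families. They were taken from RefSeq (GRCm38.p6), read 5′ to 3′, and have the seed (bases 2 to 8) in capitals.
miR-17-5p: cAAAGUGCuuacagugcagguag
miR-20a-5p: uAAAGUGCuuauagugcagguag
miR-106b-5p: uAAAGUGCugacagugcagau
miR-93-5p: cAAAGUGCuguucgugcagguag
miR-18a-5p: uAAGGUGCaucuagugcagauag
miR-19a-3p: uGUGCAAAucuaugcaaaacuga
miR-19b-3p: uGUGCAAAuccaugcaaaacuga
miR-92a-3p: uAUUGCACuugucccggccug
miR-25-3p: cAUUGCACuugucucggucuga

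The seed AAAGUGC was shared by miR-17-5p and miR-20a-5p of one cluster and miR-106b-5p and miR-93-5p of the other. The seed AUUGCAC likewise joined miR-92a-3p to miR-25-3p, and GUGCAAA was common to miR-19a-3p and miR-19b-3p, which differed by U11C (miR-19a-3p first, positions counted from 1 at the 5′ end). Only miR-18a-5p among the 9 had the seed AAGGUGC. The 6 hairpins of miR-17~92 lay on the plus strand at chr14:115043671-115044506 (GRCm38.p6), a span of 836 bases. The RefSeq span of their host transcript, the long noncoding RNA Mir17hg, was chr14:115044390-115046728 and held 1 of them. The 3 hairpins of miR-106b~25 lay on the minus strand at chr5:138165321-138165818, a span of 498 bases inside Mcm7. Mature miR-19b-3p and miR-92a-3p also come from identical copies on chromosome X, in a paralog cluster with Mir106a and Mir20b, so their signals cannot be assigned to 1 locus.

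Signals are the summed total probe signals of a miRNA's detected probes, where a probe counts as detected above 3 times its error. Probes differ in affinity, and levels are compared only between arrays for the same miRNA. Unless stated otherwise, 5 values stand in the order sham, 6, 12, 24, and 48 h, and 4 ratios over sham in the order of the time points. Probe signals include a factor for the effective feature size (0.6, 0.6, 0.774, 0.776, and 0.6). Slide 1 held sham and 6 h, and slide 2 held the later times, so for 12, 24, and 48 h against sham the effects of slide and of injury cannot be told apart. The 48 h array was also scanned apart from the 12 and 24 h arrays, so a difference between 24 and 48 h includes one of scan. Added spike-in RNAs, which do not come from the kidney, were 1.05 times as bright as in sham at 6 h and 2.08, 2.13, and 2.06 times at 12, 24, and 48 h. Ratios over sham are therefore given unscaled, at 1 feature size, and relative to the median of the 182 miRNAs detected on all arrays, a reading that no scaling factor of an array can alter. All 6 kidney tubule marker miRNAs were detected on every array and none of the 4 markers of liver, muscle, and neurons on any.

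miR-18a-5p gave the largest difference from sham among the members. Its signal was 6.34 ± 1.37 (scanner error), 7.28 ± 1.64, 8.08 ± 2.18, 26.6 ± 3.84, and 19.4 ± 2.54. The sham, 6 h, and 12 h values overlapped within their errors, and both later arrays lay above them. Relative to the median miRNA, its log2 ratio over sham was 0.04 and −0.20 at 6 and 12 h, 1.03 ± 0.37 at 24 h, and 1.84 ± 0.36 at 48 h. It ranked 22 of 182 at 24 h and 6 of 182 at 48 h. All of this signal came from its 19-base probe, since the 18-base probe was detected on no array. The 20 spots of the 19-base probe had a median intensity of 23.6 (14.5 to 29.7), 25.7, 23.2, 73.4 (58.2 to 83.9), and 67.3 (53.5 to 83.7). The spots at 24 and 48 h did not overlap those of the other arrays, but spots of 1 array are not replicates of a group. In an alternative called normexp below, normexp background correction with an offset of 50 was followed by quantile normalization. The mean was then taken over the spots of both probes, including the undetected one. This gave relative values of 0.21 at 24 h and 0.46 at 48 h, and the processed table gave 0.27 and 1.53. At 6 and 12 h the processed table gave −1.30 and −3.66, so the early values of this weak signal depended on the processing.

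miR-20a-5p, which carries the seed of miR-17-5p, had a signal of 174 ± 14.4, 200.2 ± 16.7, 235 ± 18.9, 419 ± 33.5, and 252 ± 20.3. At 1 feature size sham was lowest, followed by 12, 6, 48, and 24 h, and among the lowest 3 arrays neighbours did not differ beyond their combined error. Relative to the median miRNA, the log2 ratio was 0.04, −0.12, 0.23, and 0.76 ± 0.17 at 6, 12, 24, and 48 h.

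miR-92a-3p, which shares its seed with miR-25-3p, had 123 ± 11.5, 146 ± 13.6, 200.1 ± 18.3, 295 ± 26.8, and 162 ± 14.9. Its relative log2 ratios were 0.09, 0.16, 0.23, and 0.63 ± 0.19. miR-19b-3p, which shares its seed with miR-19a-3p, had 148 ± 13.7, 159 ± 14.9, 213 ± 19.8, 338 ± 31.2, and 169.5 ± 15.9. At 1 feature size only its 24 h array stood above its nearest neighbour by more than the combined error, and its relative log2 ratios were −0.05, −0.02, 0.16, and 0.43 ± 0.19.

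**Figure D1:**
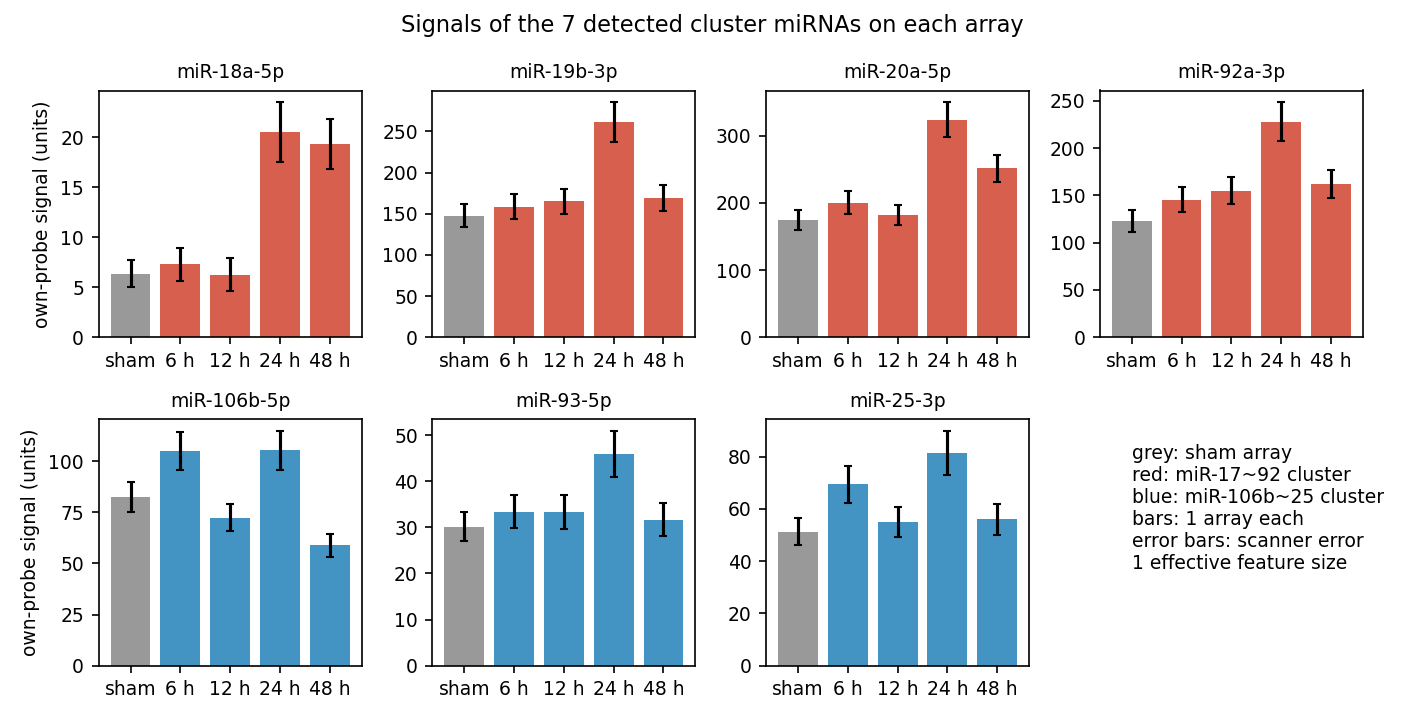
Own-probe signal (units, y axis from 0, a separate scale for each miRNA) of the 7 detected members on each array from sham to 48 h, at 1 effective feature size, with 1 array per bar and the scanner error as error bars. miR-18a-5p at 48 h was close to its 24 h level (19.4 against 20.6), and miR-106b-5p at 48 h (58.9) lay below sham (82.4).

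miR-106b-5p, the first product of its cluster, was the only detected member with a lower unscaled signal at 48 h than in sham. Its signal was 82.4 ± 7.26, 105 ± 9.27, 93.5 ± 8.49, 136 ± 12.3, and 58.9 ± 5.68, which was the lowest of the 5 arrays. Relative to the median miRNA the log2 ratio was 0.20 at the first time point and then −0.37, −0.31, and −0.25 ± 0.19. The 20 spots of its brighter probe ranged from 113 to 201 at 48 h and from 206 to 274 on the sham array, without overlap. Spots of 1 array are not replicates of a group, and the unscaled log2 ratio of the median miRNA was also below 0 at 48 h (−0.23).

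miR-25-3p had 51.3 ± 5.28, 69.5 ± 7.11, 71.0 ± 7.39, 105 ± 10.9, and 56.0 ± 5.85. Its relative log2 ratios were 0.28, −0.08, 0.00, and 0.35 ± 0.21. miR-93-5p had 30.1 ± 3.14, 33.4 ± 3.65, 43.1 ± 4.76, 59.3 ± 6.55, and 31.6 ± 3.56, and relative log2 ratios of −0.01, −0.03, −0.06, and 0.30 ± 0.22. Its 15-base probe passed the detection limit on the sham array alone (3.19 times its error, against 2.20 to 2.66 times on the others). The error differed between arrays, and the signal of this probe was 4.07, 4.06, 5.07, 7.37, and 3.69. By the 16-base probe alone its relative log2 ratios were 0.20, 0.18, 0.15, and 0.51.

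**Figure D2:**
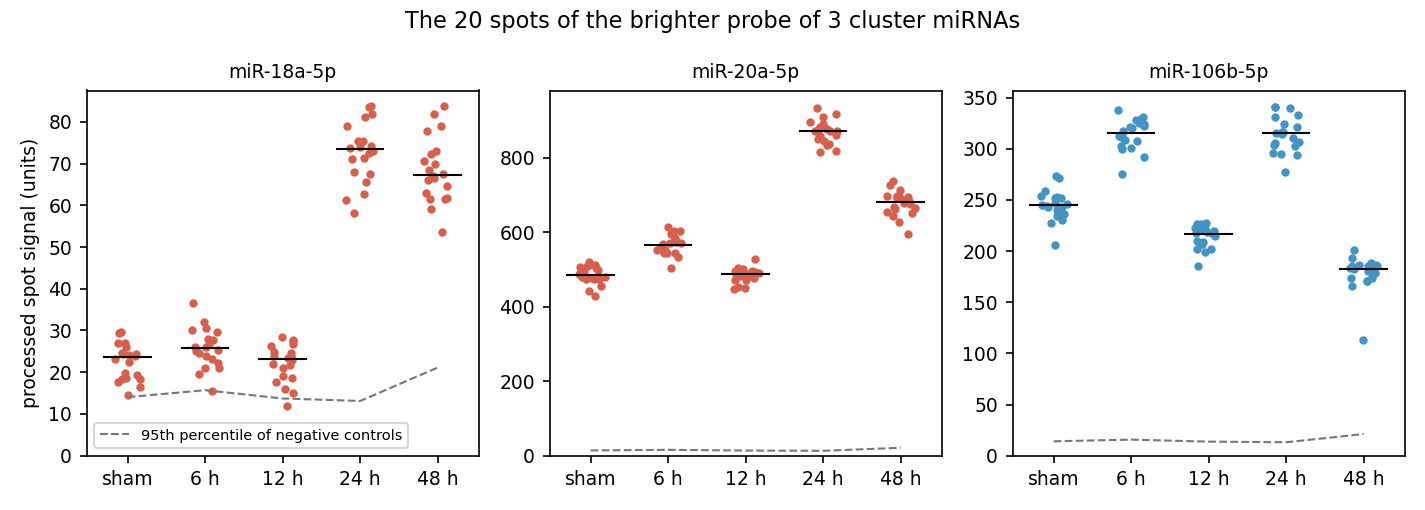
Processed signal (units, y axis from 0) of each of the 20 spots of the brighter probe of miR-18a-5p, miR-20a-5p, and miR-106b-5p on each array, before multiplication by the feature size, with the median as a black line and the 95th percentile of negative control spots as a dashed line. For miR-18a-5p the sham spots (14.5 to 29.7) lay close to the negative controls and the spots at 24 h (58.2 to 83.9) well above them.

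Unscaled, the median log2 ratio of the 7 detected members over sham was 0.20, 0.47, 1.20, and 0.20 from 6 to 48 h, beside 0.16, 0.55, 1.03, and −0.23 for all 182 miRNAs. At 24 h all 7 members were at least 1.5-fold above sham, as were 85.2% of the 182. The counts at 6, 12, and 48 h were 0, 1, and 1 of 7, against 24.7%, 48.4%, and 16.5%. With 1 feature size, 6 of 7 members passed this fold at 24 h, against 54.4% of all, and none at 12 h, against 32.4%. On this scale the medians were 0.20, 0.10, 0.82, and 0.20. After division by the geometric mean of the spike-ins the medians were 0.13, −0.59, 0.11, and −0.84, so that the direction at 12 and 48 h turned with the scaling. At 24 h the log2 ratios of single spike-ins over sham ranged from 0.61 to 1.58, on both sides of the members' unscaled median of 1.20. The direction at 24 h therefore depended on the spike-in used. The members' unscaled levels thus followed those of the array as a whole at 24 h. A change in the number of cells of a type and a change in RNA per cell cannot be told apart in whole tissue.

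**Figure D3:**
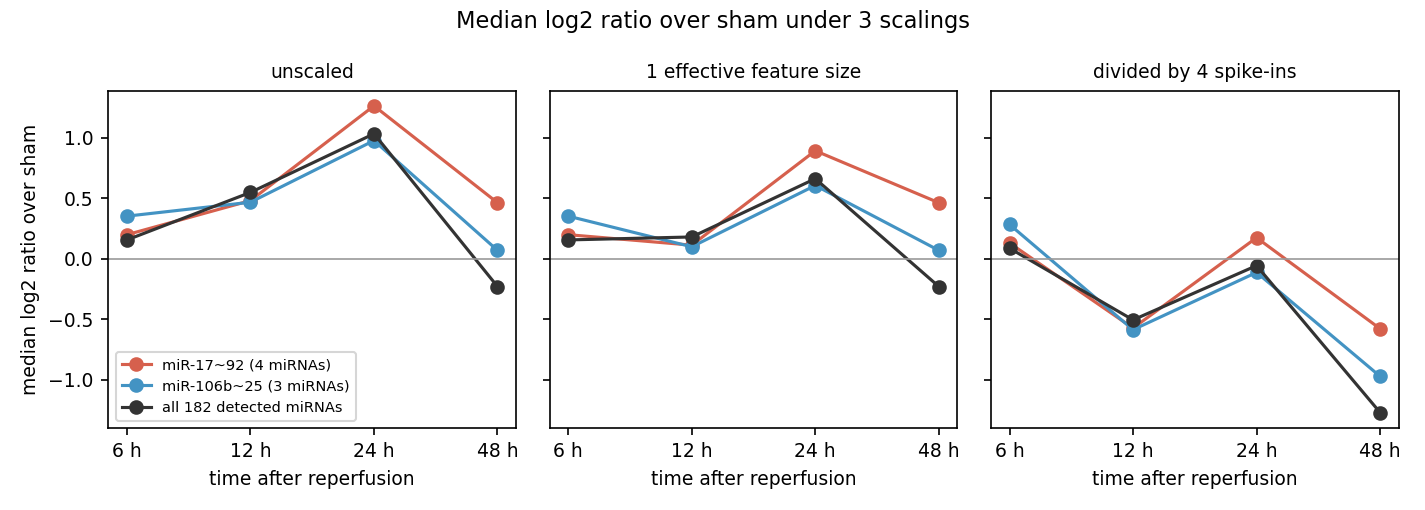
Median log2 ratio over sham (y axis) at each time after reperfusion (x axis) for the 4 detected members of miR-17~92, the 3 of miR-106b~25, and all 182 miRNAs, unscaled, at 1 effective feature size, and divided by the 4 spike-ins. The height of all lines changes together between panels (for all 182 at 24 h, 1.03, 0.66, and −0.06), and the distance between lines does not.

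Relative to the median miRNA, the median of the 7 members was 0.04, −0.08, 0.16, and 0.43 from 6 to 48 h. Higher by at least 1.5-fold were 0, 0, 1, and 3 members at 6, 12, 24, and 48 h, beside 23.1%, 28%, 23.6%, and 21.4% of all 182. The 3 at 48 h were miR-18a-5p, miR-20a-5p, and miR-92a-3p, with folds of 3.58, 1.69, and 1.54. Of these, miR-20a-5p passed this fold at 48 h under every alternative, with a relative log2 ratio of at least 0.61, while miR-92a-3p went as low as 0.36 and miR-18a-5p as low as 0.46, both with normexp. The count at 48 h was 1 with normexp, 2 in the processed table, by the brightest probe, and at 6 times the probe error, and 4 with quantile normalization. No member was lower by this fold at any time, against 6.04%, 11.5%, 9.34%, and 12.1% of all. Without miR-18a-5p, whose sham signal was near the detection limit, the medians were 0.07, −0.06, 0.08, and 0.39. As a comparison, the 9 let-7 miRNAs had relative medians of −0.21, −0.52, −0.26, and −0.12, and the 8 of another group of miRNAs (miR-15a, miR-16, miR-107, and others) had −0.15, −0.46, −0.40, and −0.14.

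**Figure D4:**
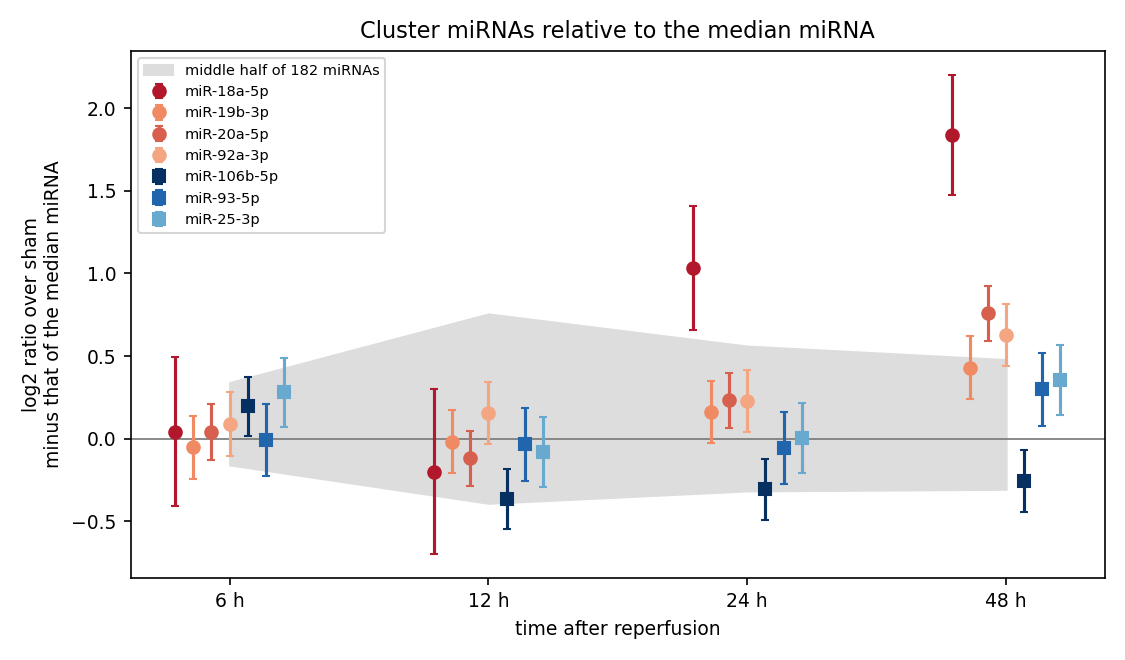
Log2 ratio over sham minus that of the median of 182 miRNAs (y axis) at each time after reperfusion for the 7 detected members, circles for miR-17~92 and squares for miR-106b~25, with the scanner error as error bars and the grey band from the lower to the upper quartile of the 182. At 48 h miR-18a-5p (1.84), miR-20a-5p (0.76), and miR-92a-3p (0.63) lay above the band.

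The values of the clusters overlapped at 6 and 12 h and not at 24 and 48 h, a pattern noticed in the data and given as a description. Relative to the median miRNA, the 4 detected members of miR-17~92 had medians of 0.04, −0.07, 0.23, and 0.69 at 6, 12, 24, and 48 h, and the 3 of miR-106b~25 had 0.20, −0.08, −0.06, and 0.30. At 48 h the former ranged from 0.43 to 1.84 and the latter from −0.25 to 0.35, without overlap. The nearest members, miR-19b-3p (0.43 ± 0.19) and miR-25-3p (0.35 ± 0.21), lay closer to each other than either scanner error. The same held for these miRNAs at 24 h (0.16 ± 0.19 and 0.00 ± 0.21). The gap turned on miR-93-5p and its short probe, since by the brightest probe alone miR-93-5p (0.48) lay above miR-19b-3p (0.41). Of the 7 alternatives that can change a relative value, the clusters were apart in 3 at 48 h and in 4 at 24 h. Among the 7 were the gene totals described below, where that of miR-93-5p held signal of other miRNAs. Its value there (2.64 at 24 h and 2.85 at 48 h) made the clusters overlap. The difference of the medians of the clusters ranged over the 7 alternatives from 0.24 to 0.66 at 48 h, where the highest value came from gene totals. It ranged from 0.17 to 0.45 at 24 h and from −0.02 to 0.64 at 12 h, where the highest values came from the processed table.

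Members with the same seed differed beyond the scanner error in some pairs and not in others. Between miR-20a-5p and miR-106b-5p the difference of log2 ratios was −0.15, 0.25, 0.54, and 1.01 from 6 to 48 h, each ± 0.25, and exceeded the combined scanner error at the last 3 times. Between miR-20a-5p and miR-93-5p it was 0.05, −0.08, 0.29, and 0.46, beyond the combined error of 0.27 and 0.28 at 24 and 48 h, but by the 16-base probe of miR-93-5p alone it was −0.16, −0.29, 0.08, and 0.25. For miR-92a-3p against miR-25-3p it was −0.19, 0.24, 0.22, and 0.27, each within the combined error of 0.28. From 24 to 48 h at 1 feature size, miR-18a-5p changed by −0.09 ± 0.28 and miR-106b-5p by −0.84 ± 0.19, while the median miRNA changed by −0.87.

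For miR-17-5p, neither of the probes, which are 12 and 13 bases long, exceeded 1 times its error on any array. These probes pair fully with miR-106a-5p too, which differs from miR-17-5p by U10A. Of 521 array probes of 13 bases or fewer, 27.6% were detected on at least 1 array, against 18.2% of 2584 longer probes. Whether probe length had a part in the result for miR-17-5p was not tested. The brighter probe of miR-19a-3p reached 0.98 to 2.29 times its error, below the limit of 3. At 24 h, however, 13 of the 20 spots of this probe lay above the 95th percentile of the negative control spots (13.1), with a median of 16.04 against 4.77 for the controls, while for miR-17-5p 1 of 20 spots did. Neither miRNA passed the detection limit, which does not show that they were absent.

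Among the opposite arms of the 9 hairpins, 2 of 9 were detected on any array. miR-17-3p had 4.72 ± 1.30 in sham, 5.09 ± 1.56 at 6 h, and 11.5 ± 2.998 at 24 h, and was below the limit at 12 and 48 h. The limit rose with the error of an array, and the longer probe of miR-17-3p gave 6.11 ± 2.12 at 12 h, above its sham signal. At 48 h that probe gave 3.35 ± 1.66. miR-18a-3p was detected at 24 h alone, with 11.5 ± 2.12. In the paralog cluster on chromosome X, 2 of the 9 products on the array were detected, namely miR-18b-3p at 24 h alone (9.28 ± 2.91) and miR-20b-5p on every array.
miR-20a-5p: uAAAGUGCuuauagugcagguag
miR-20b-5p: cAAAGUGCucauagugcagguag
These are shown side by side because they share a seed and differ only by U1C and U10C (miR-20a-5p first). miR-20b-5p had 68.3 ± 5.24, 59.4 ± 4.83, 65.7 ± 5.62, 96.5 ± 8.21, and 58.2 ± 4.90. The log2 ratio of miR-20a-5p exceeded that of miR-20b-5p by 0.40, 0.49, 0.77, and 0.76 at 6, 12, 24, and 48 h, each with a combined error of 0.23. Cross-pairing between their probes, which differ from the other miRNA by 1 base, was not tested. The probes of miR-20a-5p also differ from miR-17-5p by 1 base, and those of miR-19b-3p differ from miR-19a-3p by 1 base. Whether miR-17-5p or miR-19a-3p added to these signals was not tested either.

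The deposited gene totals of 3 members held signal of other miRNAs, and own probes were used for this reason. For miR-25-3p the total on every array exceeded the own-probe signal by the total of miR-24-3p (within 1%), which made up 88.3% to 90.9% of it. Totals of other miRNAs also came within 1% at 12, 24, and 48 h, but only that of miR-24-3p did so on every array. For miR-93-5p the excess equalled the total of miR-92a-3p at 6, 12, and 48 h and of miR-92b-3p at 24 h, at 81.3% to 83.6%, with none in sham. The totals of miR-378a-3p at 12 h and miR-16-5p at 48 h also lay within 1% of the excess of miR-93-5p. By the gene totals, its relative log2 ratio at 48 h would be 2.85 in place of 0.30. For miR-18a-5p the excess made up 56.9% to 92.3% of the total. Its relative log2 ratios would be 1.36, 1.29, 1.59, and 0.76 at 6, 12, 24, and 48 h.

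The miRNAs outside the cluster lists whose log2 ratios over sham at the 4 time points, at 1 feature size, lay nearest to the members' median were miR-99b-5p, miR-125a-5p, and miR-362-3p. Their root mean square differences from it were 0.10, 0.15, and 0.15, out of 174 candidates.

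Marker miRNAs of other cells also differed between arrays. miR-451a, the red cell miRNA, had 159, 500.3, 181, 416, and 105 at 1 feature size, and of its list of 3, miR-144-3p was not detected and miR-486-5p was not on the array. Of the 6 leukocyte markers 2 were detected on all arrays and 2 on none, and their summed signal was 47.8, 76.7, 85.7, 54.7, and 61.2. The summed tubule markers were 3184, 3611, 3066, 3855, and 2407 in the same order, and those of endothelium were 831, 881, 696, 993, and 586. The part of these cells in the members' values was not tested.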

How the data were processed

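Kidney miRNAs of 5 groups (sham, 6, 12, 24, and 48 h) were measured on 1-colour Agilent mouse miRNA microarrays (Release 19), 1 array per group. The authors deposited the intensity values of Agilent Feature Extraction 10.7.1.1 (version from the submitters' processing notes), after background subtraction and spatial detrending, without normalization across arrays. The deposited table of processed log2 values served as an alternative only, and the sources used here do not say how it was made. Its medians were −3.12, −3.22, −3.30, −3.32, and −3.01 on the sham to 48 h arrays. On each array the undetected miR-17-5p and miR-19a-3p had this same value, so the medians do not show a centring. Some values recurred exactly between arrays, such as 7.33 for miR-92a-3p in sham and at 6 h. Another was 5.79 for miR-106b-5p at 12 h and miR-93-5p at 48 h. The table may thus have been normalized across arrays, which was not tested. Total probe signals were summed once per probe over probes above 3 times their error, and errors were added as squares. The number of arrays limits the precision, and no test, p-value, or correlation was computed. The members, the lists of families and markers, and the miRNAs named were chosen with earlier results of these data known. Named were all 9 members, the detected opposite arms and paralog cluster products, and the 3 miRNAs with the smallest root mean square difference from the members' median. The sums and medians were tested on simulated data of 1200 miRNAs with 200 changed, and a reference that left these out. Here 7 members were set against 182 miRNAs that include them, so that test does not show how precise a median of 7 is. Computations were run in R 4.3.3 with limma 3.58.1 and in Python 3.11.15 with pandas 2.3.3, and figures were drawn in matplotlib 3.10.9. Alternatives were other scalings, normexp followed by quantile normalization and a mean over all spots of a miRNA, detection limits, the brightest probe, gene totals, and the processed table. The qRT-PCR and histology were not analysed here.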

Additional observations from a re-analysis of the deposited data

How the results depend on the processing

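Reversed here means that a value larger than its scanner error changed sign or became 0. For a median, the scanner error used was that of the single member nearest to it, which is not an error of the median itself. Relative to the median miRNA, scaling by feature size, spike-ins, or the 75th percentile can move no value, and under the other alternatives 30 of 32 medians stayed within this scanner error, 2 of them changing sign from within it. Beyond it lay the 48 h median, 0.23 with normexp and 0.78 with quantile normalization. Of 192 relative values of single members, 156 stayed within the error, 33 moved further, and 3 reversed, namely miR-20a-5p (−0.0018) and miR-106b-5p (0.021) at 24 h with quantile normalization and miR-25-3p (−0.031) at 48 h by gene totals. Another 31 that lay within their error of 0 changed sign, among them miR-93-5p at 24 h (up to 2.64, by gene totals). Unscaled log2 ratios depended on the scaling, with 9 of 44 medians and 46 of 276 single values reversed and 27 more single values changing sign from within their error. Without being reversed, 9 medians and 79 single values moved beyond the error, and these can include some of the 27. Given next are the reversed values and the medians that moved. At 1 feature size the medians were 0.10 at 12 h and 0.82 at 24 h, and by gene totals 0.40 at 48 h. Scaled by the 75th percentile, the values at 6 h were −0.098 for the median, −0.098 for miR-20a-5p, and −0.053 for miR-92a-3p. At 12 h they were −0.16 for the median, −0.10 for miR-19b-3p, −0.20 for miR-20a-5p, −0.12 for miR-93-5p, and −0.16 for miR-25-3p. At 24 h they were 0.035 for the median, −0.43 for miR-106b-5p, −0.18 for miR-93-5p, and −0.12 for miR-25-3p. With normexp, the values at 6 h were −0.094 for the median, −0.16 for miR-20a-5p, −0.094 for miR-92a-3p, and −0.0015 for miR-106b-5p. At 12 h they were −0.21 for the median, −0.17 for miR-19b-3p, −0.30 for miR-20a-5p, −0.096 for miR-92a-3p, −0.21 for miR-93-5p, and −0.27 for miR-25-3p. At 24 h they were 0.080 for the median, −0.27 for miR-106b-5p, −0.099 for miR-93-5p, and −0.12 for miR-25-3p. In the processed table, the values at 6 h were −0.10 for the median, −0.19 for miR-20a-5p, 0 for miR-92a-3p, −0.062 for miR-106b-5p, and −0.016 for miR-25-3p. At 12 h they were −0.73 for the median, −0.14 for miR-19b-3p, −0.25 for miR-20a-5p, −0.097 for miR-92a-3p, −0.83 for miR-93-5p, and −0.73 for miR-25-3p. At 24 h they were 0.037 for the median, −0.33 for miR-106b-5p, −0.35 for miR-93-5p, and −0.23 for miR-25-3p. At 48 h they were 0.42 for the median. Divided by the spike-ins, the values at 12 h were −0.59 for the median, −0.52 for miR-19b-3p, −0.62 for miR-20a-5p, −0.35 for miR-92a-3p, −0.54 for miR-93-5p, and −0.59 for miR-25-3p. At 24 h they were 0.11 for the median, −0.36 for miR-106b-5p, −0.11 for miR-93-5p, and −0.051 for miR-25-3p. At 48 h they were −0.84 for the median, −0.84 for miR-19b-3p, −0.51 for miR-20a-5p, and −0.64 for miR-92a-3p. With quantile normalization, the values at 6 h were −0.0027 for miR-20a-5p. At 12 h they were −0.018 for the median, −0.018 for miR-93-5p, and −0.023 for miR-25-3p. At 24 h they were 0.75 for the median. At 1 feature size 2 single values changed sign from within their error, both at 12 h, miR-18a-5p (−0.02) and miR-106b-5p (−0.19). The alternative without miR-18a-5p was chosen after seeing the data and moved no median beyond the error. Probes above 6 times their error left 6 members and 128 of the 182 miRNAs. No paired analysis was possible because there was 1 array per group, and for the same reason no replicate could be left out. Signal over background limits miR-18a-5p in sham (4.64 times its error), miR-17-5p, and miR-19a-3p.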
